A study of Rattus norvegicus with 9 samples.

Results

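The transcriptome of cultured control Schwann cells was taken from the 3 arrays of the Control RNAi group, out of 9 arrays in the series. Primary rat Schwann cells prepared from sciatic nerve received scrambled RNAi oligonucleotides in this group, and total RNA was collected 48 h after transfection. The other groups were cells given RNAi oligonucleotides against Nf1 (NF1 RNAi, 3 arrays) and such cells also given the MEK inhibitor U0126 (NF1 RNAi + U0126, 3 arrays). The arrays of each group were described as independent biological replicates. The sources used here do not give the rats' strain, age or sex, the culture medium or the passage, and U0126-treated control cells were not analysed here. Every cell therefore had been in culture and had been transfected, so the levels below are those of dissociated, transfected cells and not of Schwann cells in the nerve.

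Each gene was represented by 1 microarray probe set, a group of short oligonucleotides that together report 1 transcript. The 14213 genes whose probe set was annotated to exactly 1 gene were ranked by their mean log2(intensity + 1) over the 3 control arrays. This level is called the log2 signal, and 1 unit is a 2-fold difference. Values written as a run of 3 are those of replicates 1, 2 and 3 in that order, and means carry the SD over the 3 arrays. The brightness of a probe set depends on how well it hybridises as well as on how much transcript is present. The ranks are thus ranks of signal, and a distance between genes is not a ratio of transcript numbers. A log2 signal of 6 was used as a descriptive floor and 9966 genes (70.1%) reached it.

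Schwann cells are the glia of peripheral nerve. In the nerve they wrap axons, build compact myelin around the larger ones, lay down a basal lamina and supply trophic factors, and their survival depends on axonal neuregulin acting through the ErbB2 and ErbB3 receptors. After injury, or when placed in culture without axons, they leave the myelinating state. They then resemble immature or repair Schwann cells, which divide, express the low-affinity neurotrophin receptor and the transcription factor c-Jun, and switch off most myelin genes.

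All 6 genes used to mark Schwann cells were above the median gene, so the label fits its markers. S100b, a calcium-binding protein of glia, had a log2 signal of 13.08, 13.33 and 13.32 and stood at rank 69. Pmp22, a peripheral myelin protein that is also made outside myelin, had 12.70, 12.81 and 12.96. Ngfr, the low-affinity neurotrophin receptor, had 12.32, 13.01 and 13.06. These 3 were among the 150 brightest genes, with replicate 1 the lowest array for each. Sox10, the transcription factor that specifies the lineage, gave 11.47, 11.37 and 11.36, a mean of 11.40 ± 0.06 (SD, n = 3) and rank 791. Erbb3, which binds neuregulin, gave 9.33, 9.80 and 9.99, and Gfap, an intermediate filament of non-myelinating and immature Schwann cells, gave 9.43, 9.24 and 9.68.

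Median intensities ran from 95 to 97.1 over all 9 arrays. RMA, the normalization behind the deposited values, brings arrays to a like distribution, so these medians do not show how alike the RNA was. The probe sets for the 3′ and 5′ ends of beta-actin, a manufacturer's control for RNA integrity, differed by 0.90 log2 units in control replicate 1 and by 0.62 and 0.60 in replicates 2 and 3. In the other groups that difference ran from 0.78 to 0.87. For GAPDH, another such control, it was 0.06, −0.06 and −0.11 in the control arrays and −0.10 to −0.02 in the other groups. The targeted gene followed the labels: Nf1, which encodes the Ras GTPase-activating protein neurofibromin, had a log2 signal of 6.65, 6.59 and 6.15 in the control arrays, 5.39, 5.41 and 5.44 in the NF1 RNAi arrays, and 5.44, 5.72 and 5.39 with U0126. The control arrays lay above all arrays of both other groups.

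The brightest genes were those of the cytoskeleton, of protein synthesis and respiration, and of the extracellular matrix. Vim, which encodes the intermediate filament vimentin, ranked first at 14.62, 14.64 and 14.64. COX1 and COX2, the mitochondrially encoded subunits of cytochrome c oxidase, followed at means of 14.56 ± 0.05 and 14.44 ± 0.02. Eef1a1, the elongation factor that brings aminoacyl-tRNA to the ribosome, had 14.34 in replicates 1 and 2 and 14.35 in replicate 3. Actg1, cytoplasmic gamma-actin, had 14.23, 14.26 and 14.29, and Tmsb4x, the actin-monomer-binding thymosin beta 4, had a mean of 14.13 ± 0.03. These genes near the top varied little between cultures.

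**Figure D1:**
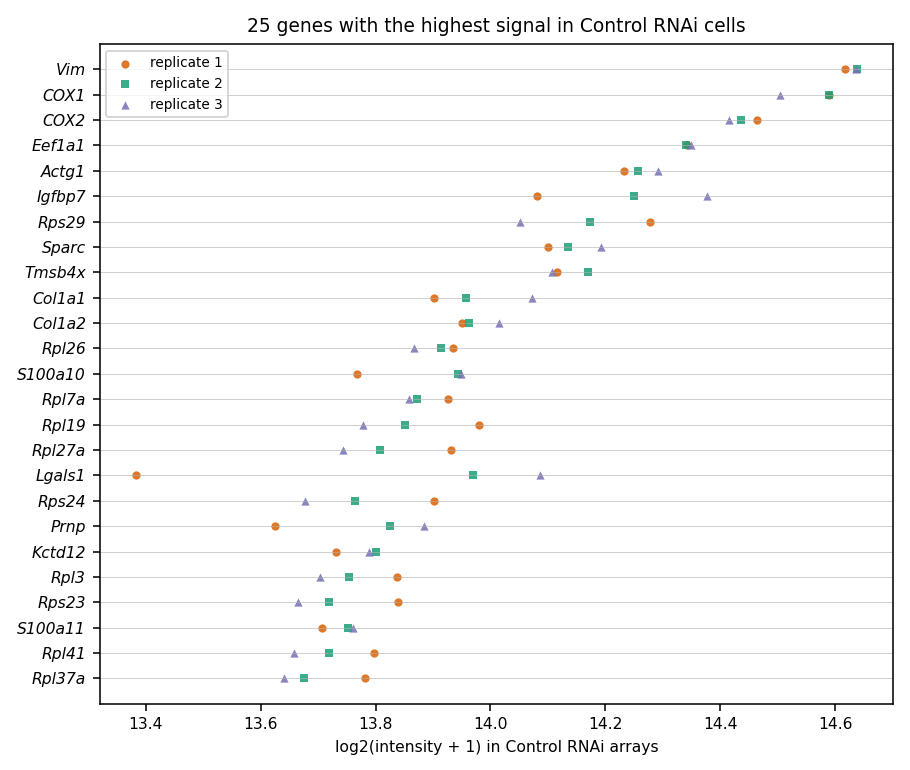
Log2(intensity + 1) of the 25 genes with the highest mean in Control RNAi cells, 1 point per array (x axis) and 1 gene per row (y axis, brightest at the top). Vim leads at 14.63, and Lgals1 shows the widest spread, with replicate 1 at 13.38 against 13.97 and 14.09.

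Secreted products stood beside the housekeeping genes. Igfbp7, a secreted protein that binds insulin-like growth factors and insulin, ranked 6 with 14.08, 14.25 and 14.38. Sparc, a collagen-binding matricellular protein, ranked 8 with 14.10, 14.13 and 14.19. Lgals1, the beta-galactoside-binding lectin galectin-1, had 13.38, 13.97 and 14.09, so replicate 1 lay below both other arrays by more than they differed from each other. Prnp, the cellular prion protein, at 13.78 ± 0.14, and Kctd12, an auxiliary subunit of GABA-B receptors, at 13.77 ± 0.04, were the 2 surface or receptor-associated genes in the leading 25. S100a10 and S100a11, small calcium-binding proteins that partner annexins, were also there at 13.89 ± 0.10 and 13.74 ± 0.03.

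Among the 100 brightest genes, which ended at a log2 signal of 13.06, 32 encoded cytosolic ribosomal proteins. A further 5 were in the list of secreted carriers, proteases and inhibitors (Igfbp7, Sparc, Lgals1, Serpine2 and Igfbp5). The matrix and collagen lists gave Col1a1, Col1a2, Col5a2, Tnc and Col4a1, and the S100 family gave 4. The lists of lineage transcription factors, trophic and growth factors, chemokines and cytokines, and growth factor and trophic receptors had no member there. The spread was smaller at the top: the median SD over the 3 arrays was 0.067 for these 100 genes and 0.097 for all genes. The widest was 0.457, for Arpc1b, a subunit of the actin-nucleating Arp2/3 complex, followed by Ccn2, connective tissue growth factor, at 13.84, 13.20 and 12.97. Ribosomal protein genes were shifted together by a small amount, and 31 of the 32 were highest in replicate 1, against 40.9% of all genes. Their median difference from the mean of the other arrays was 0.11.

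The choice of probe set affected this ranking. When all probe sets of a gene were averaged in place of taking the brightest one, 74 of the 100 genes stayed among the brightest 100. Actg1 had a second probe set at 7.60, against 14.26 for the one used. Of the 100 genes, 95 stayed in the set without replicate 1, 99 without replicate 2 and 96 without replicate 3.

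A TATA box, the core promoter element bound by TATA-binding protein shortly before the start of transcription, was looked for because strong promoters of abundant transcripts often carry one. The letters TATAAA on the coding strand were found in the last 50 bases before the annotated start in 6 of the 84 bright genes with a RefSeq promoter (7.14%). Over 11736 measured genes with a promoter the share was 2.64%, and over all 27457 promoters of the table it was 2.46%. These are counts of letters in a window and show no binding. The last 60 bases before the start are shown in assembly GRCr8, read 5′ to 3′ on the gene's strand, for S100a4 (chr2:178388469-178388528, plus strand), a secreted and cytoplasmic calcium-binding protein, and for Ccn2 (chr1:22624615-22624674, minus strand). They were chosen as a matrix-related and an S100 gene of this set that carry the match at the same place, and capitals mark it.
S100a4: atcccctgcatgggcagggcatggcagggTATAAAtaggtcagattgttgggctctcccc
Ccn2: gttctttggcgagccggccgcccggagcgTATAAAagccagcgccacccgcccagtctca

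Transcription factors of the lineage ranged from the brightest percent of genes to well below the floor. Jun, which encodes c-Jun, had 12.80, 13.14 and 13.19 and ranked 103. Sox2, which holds Schwann cells in an immature state, had 11.59, 12.10 and 12.23. Zeb2, a repressor needed for the cells to differentiate, gave 11.56 ± 0.09, and Tead1, a DNA-binding partner of YAP, gave 11.55 ± 0.09. Yy1, a broadly expressed factor that also acts in myelination, was at 10.93 ± 0.01, and Nfatc4, Nab1 and Nab2, partners or co-regulators of the Egr2 programme, were above the median gene at 8.51, 8.20 and 8.06. Lower down, Egr2 itself, which switches on the myelin genes, had 6.77, 6.97 and 6.58, and Pou3f1, the factor that precedes it, had 6.92, 6.11 and 6.24. Olig1, an oligodendrocyte lineage factor, was near the bottom at 4.47 ± 0.12. Of the 19 factors measured, 16 reached a log2 signal of 6 (84.2%). Sox2 was read by 4 probe sets, the dimmest of them at 4.09.

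Myelin genes also covered a wide range. Cnp, a phosphodiesterase of non-compact myelin that is also widely expressed, had 13.24, 13.57 and 13.60, and Pmp22 was described above. Sirt2, a deacetylase found in myelin, reached 10.10 ± 0.12 and Mbp, myelin basic protein, 9.77 ± 0.07. Ugt8, which makes the myelin lipid galactocerebroside, was at 9.05 ± 0.05. Lower in the list were Prx, periaxin, at 7.31 ± 0.25, Gjb1, the gap junction protein connexin 32, at 5.96 ± 0.04, Mag, myelin-associated glycoprotein, at 4.87 ± 0.18, and Mal at 4.46 ± 0.04. The median of the 15 measured myelin genes was 7.31, just under the median of all genes, 7.81.

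Surface and adhesion genes of immature Schwann cells were high. Ncam1, a neural cell adhesion molecule, had 11.53, 10.89 and 10.72, and L1cam, its relative on non-myelinating cells, had 10.88, 10.81 and 10.72. Cdh2, N-cadherin, had 12.07, 11.02 and 10.79, with replicate 1 the highest. Nes, the intermediate filament nestin, reached 12.63 ± 0.25, and the small heat shock protein gene Cryab 13.12 ± 0.18. Gap43, a growth-associated membrane protein of growing axons and of non-myelinating Schwann cells, was the least uniform at 10.83, 12.82 and 12.77, and its second probe set was dim in all 3 arrays at 3.05. Fabp7, a fatty acid-binding protein of Schwann cell precursors, was at 4.01 ± 0.02.

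Markers of other cells of the nerve were mostly dim, with exceptions in the fibroblast, neuron and perineurial lists. Of 5 perineurial genes, 3 reached the floor (60%), and the list median was 6.70. The brightest was Tjp1 at 11.17, and its second probe set was at 6.69. The fibroblast list held both extremes. Col1a1 and Col1a2, the chains of type I collagen, were at 13.98 ± 0.09 and 13.98 ± 0.03, and Postn, periostin, had 13.91, 13.63 and 13.23. Col3a1, a type III collagen chain, was at 12.33 ± 0.44, and Fbln1 was just above the floor at 6.17 ± 0.70. By contrast Dcn and Lum, the small proteoglycans decorin and lumican of endoneurial fibroblasts, were at 3.95 ± 0.10 and 3.08 ± 0.05. Pdgfra, the fibroblast PDGF receptor, Dpt, dermatopontin, Fap and Tcf21 lay between 4.73 and 5.24. Lum was in the lowest part of the ranking, at 14182 of 14213. The 3 control arrays each showed this split.

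**Figure D2:**
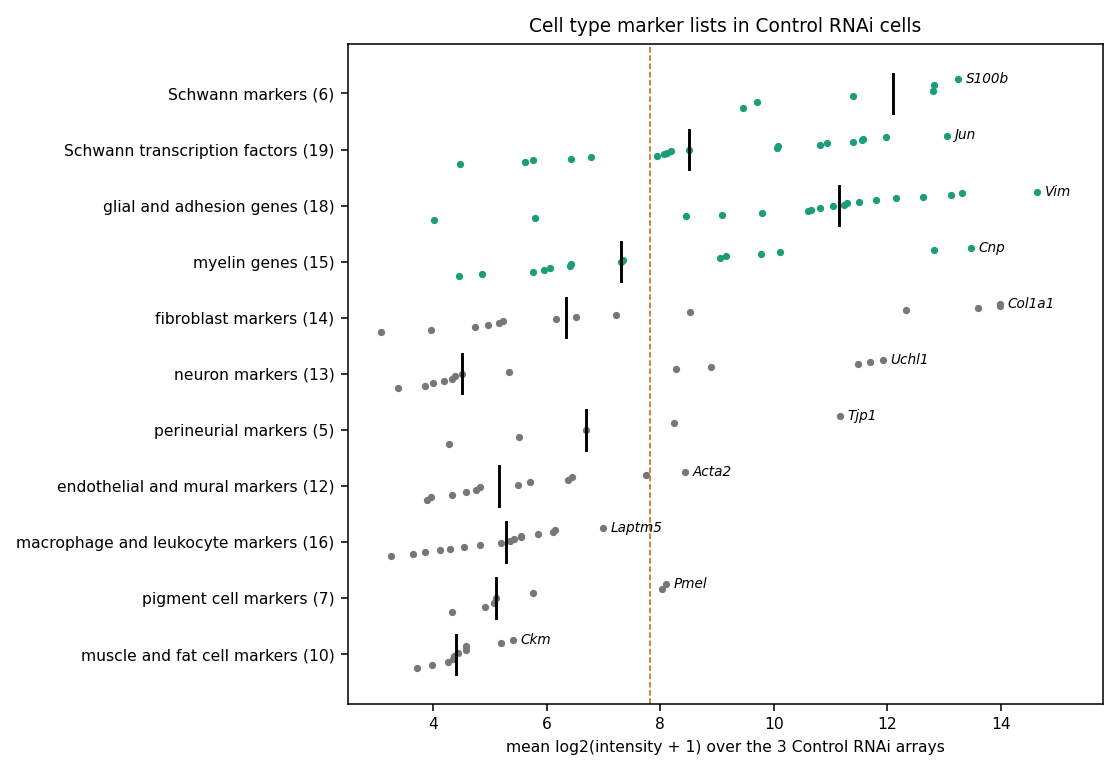
Mean log2(intensity + 1) over the 3 Control RNAi arrays (x axis) for each gene of 11 marker lists (rows, number measured in brackets), with Schwann lists in green and other cell types in grey. Black bars are list medians, the dashed line is the median of all genes at 7.81, and the brightest gene of each list is named; the fibroblast and neuron lists spread from the bottom to the top of the scale.

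Within the neuron list, Uchl1, a ubiquitin hydrolase, was at 11.92 ± 0.15, and the neurofilament subunit genes Nefm and Nefl were at 11.70 ± 0.36 and 11.48 ± 0.50. Tubb3, the neuronal beta-tubulin, had 8.0, 9.29 and 9.39. Map2, a microtubule protein of dendrites and cell bodies, was at 8.28 ± 0.13. The remaining 8 of the 13 genes were below the floor, among them Rbfox3, which encodes NeuN, at 5.33 ± 0.14, Snap25 at 4.33 ± 0.08, Stmn2 at 3.86 ± 0.07 and the sodium channel gene Scn9a at 3.38 ± 0.03. The list was thus split, with 5 genes above the floor and 8 below it.

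Blood-derived, vascular, muscle and fat cell markers gave little signal. Of 16 macrophage and leukocyte genes, 3 reached a log2 signal of 6 (18.8%), led by Laptm5 at 6.98 ± 0.07, whereas Ptprc, the pan-leukocyte antigen CD45, was at 4.54 ± 0.15 and Csf1r, the macrophage growth factor receptor, at 4.13 ± 0.09. Of 12 endothelial and mural genes, 4 reached it, and the endothelial genes Pecam1, Vwf and Kdr were at 5.70, 4.33 and 4.82. Acta2, smooth muscle actin, was the brightest of that list at 8.44 ± 0.26. None of the 10 muscle and fat cell genes reached it, the highest being Ckm at 5.40 ± 0.20. In the pigment cell list, Pmel and Mitf were at 8.10 ± 0.18 and 8.03 ± 0.25, and the pigment enzyme genes Tyr and Dct at 5.08 and 5.10. In bulk RNA, few cells with a high level and many cells with a low level cannot be told apart.

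Receptors for neurotrophic factors were led by Ngfr and Gfra1. Gfra1, which presents GDNF to its signalling partner, had 12.29, 12.99 and 13.08, and Ret, that partner kinase, had 5.93, 6.04 and 6.06. The related co-receptors Gfra3 and Gfra2 were at 9.65 ± 0.25 and 9.63 ± 0.26. Among the Trk kinases that pair with Ngfr in neurons, Ntrk2 was at 6.29 ± 0.10 and Ntrk3 at 4.69 ± 0.27. Il6st, the shared gp130 chain of the interleukin-6 family receptors, had 10.83, 11.42 and 11.42, while Lifr, its partner for LIF and CNTF, was at 5.65 ± 0.13. In both families the binding or shared chain was bright and a signalling partner was near or below the floor, in every control array.

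Of the receptors for axonal signals and growth factors, Erbb3 was brighter than the median gene, and Erbb2, the kinase it needs, had 8.22, 8.44 and 8.77. Egfr was at 4.63 ± 0.02. The TAM receptor genes, whose products bind Gas6 and take part in the uptake of cell debris, were all above the floor, with Axl at 11.53 ± 0.04, Mertk at 8.93 ± 0.51 and Tyro3 at 8.69 ± 0.08. Ddr1, a collagen receptor kinase, reached 10.74 ± 0.17, and Lrp1, a scavenger and signalling receptor of Schwann cells, 10.18 ± 0.24. Nrp1, a co-receptor for semaphorins and VEGF, had 9.78, 7.99 and 8.02, the widest spread of the list. In all, 23 of the 29 receptors measured reached the floor (79.3%), against 70.1% of all genes.

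G protein-coupled and nucleotide receptors reached the floor in 9 of 18 cases. S1pr3, a receptor for sphingosine-1-phosphate, had 11.96, 11.76 and 11.83. F2r, the thrombin receptor, had 10.05, 10.76 and 11.04, and Adgrg6, the adhesion receptor that is required for myelination, had 10.48, 10.23 and 10.24. Lpar1, a receptor for lysophosphatidic acid, was at 9.32 ± 0.07. P2ry1, a receptor for ADP, was at 3.27 ± 0.16, and Htr2b, a serotonin receptor, had 4.84, 4.03 and 3.67. Tnfrsf12a, the receptor for the cytokine TWEAK, led the TGF-beta, Notch and cytokine receptors at 11.23 ± 0.09, followed by Tgfbr1 at 10.62 ± 0.08. The Toll-like receptor genes Tlr2 and Tlr4 were at 4.40 and 3.81.

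Receptors for the matrix were all above the floor. The 17 measured ran from Itgb4 at 6.70 ± 0.67 to Itgb1, the beta-1 integrin chain, at 13.18 ± 0.08. Itga6, which pairs with either of them to bind laminin, had 12.07, 12.31 and 12.44. Dag1, dystroglycan, another laminin receptor of Schwann cells, reached 12.50 ± 0.09, Gpc1, glypican-1, 12.89 ± 0.13 and Cd44, which binds hyaluronan, 12.04 ± 0.06. The alpha chains differed between arrays: Itga7, a further laminin-binding chain, had 8.81, 10.44 and 10.55, whereas Itga1, a collagen-binding chain, had 10.89, 9.47 and 9.11. Replicate 1 was thus the lowest array for the one and the highest for the other.

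Of the trophic and growth factors, 21 of 38 reached the floor (55.3%). Gas6, the ligand of the TAM receptors, was the brightest at 12.19, 12.23 and 12.22. Pdgfa, a PDGF chain, had 11.12, 11.13 and 11.11. Lgi4, which Schwann cells secrete and which acts on axonal and glial ADAM22, had 10.66, 10.66 and 10.61, and Dhh, the Schwann cell hedgehog that organises the perineurium, had 10.44, 10.70 and 10.68. The first 3 were nearly the same in every culture, and Dhh was lower in replicate 1. Fgf5 followed at 10.46 ± 0.54, Tgfb1 at 9.80 ± 0.09, Bdnf, brain-derived neurotrophic factor, at 9.57 ± 0.29 and Cntf, ciliary neurotrophic factor, at 9.02 ± 0.44. Gdnf, the ligand presented by Gfra1, was at 6.47 ± 0.14. Shh, Hgf and Angpt1 were at 4.83, 4.61 and 3.32.

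**Figure D3:**
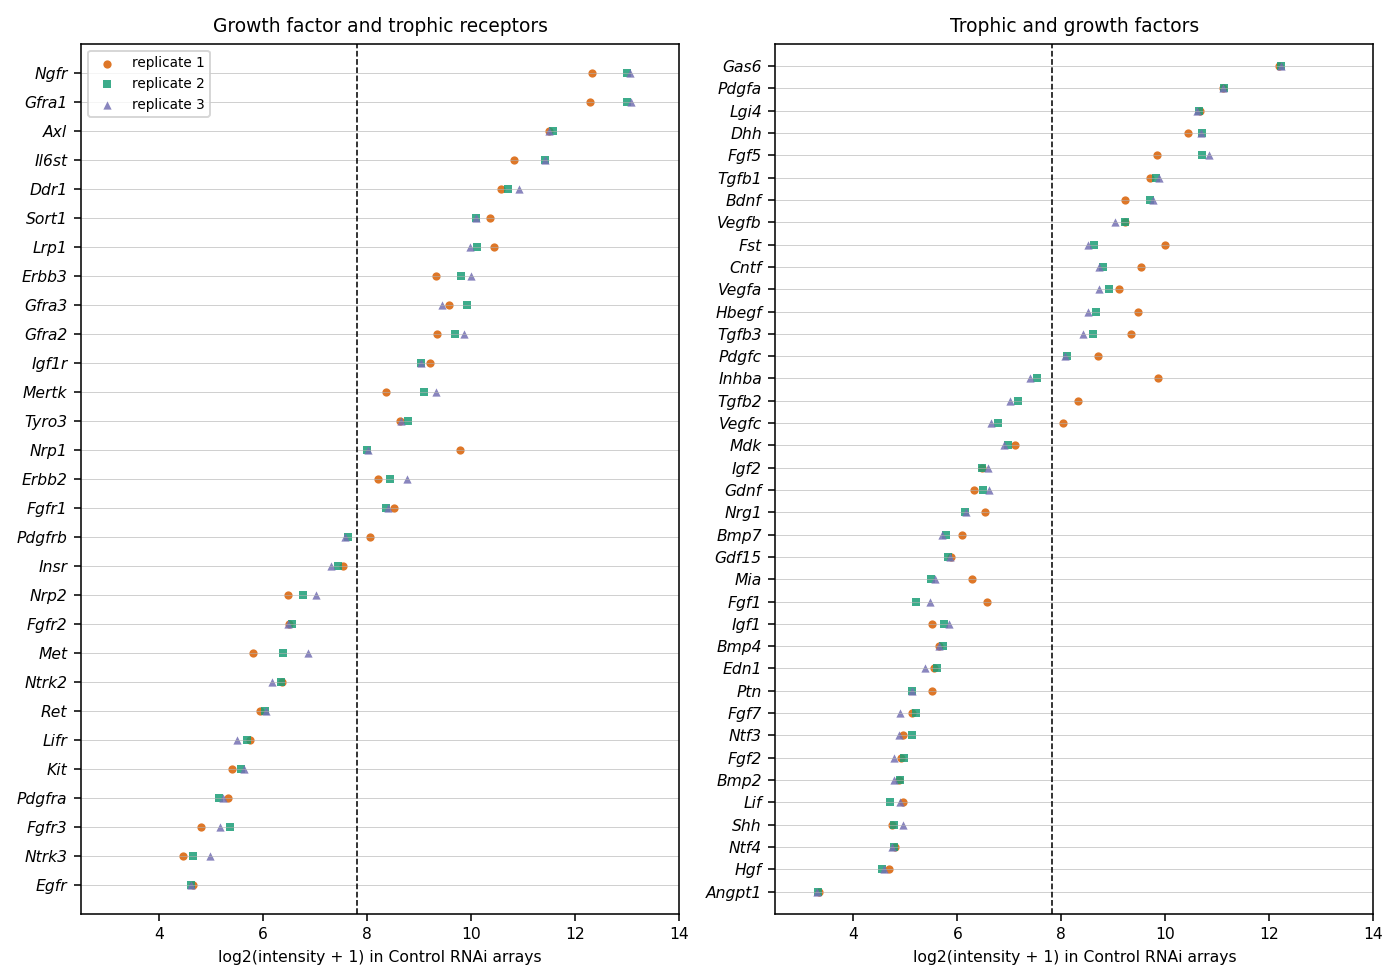
Log2(intensity + 1) in each Control RNAi array (x axes) for 29 receptors (left) and 38 trophic and growth factors (right), ordered by mean, with the median of all genes dashed. Ngfr and Gas6 lead, and replicate 1 lies apart for Nrp1 (9.78 against 7.99 and 8.02) and Inhba (9.85 against 7.54 and 7.39).

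Replicate 1 was the highest array for 22 of the 38 factors (57.9%, against 40.9% of all genes), and 5 were at least 2-fold above both other arrays. Inhba, which encodes the activin A chain, had 9.85, 7.54 and 7.39, and Fst, follistatin, which binds activin, was at 9.05 ± 0.83 with replicate 1 highest. Tgfb2 had 8.33, 7.17 and 7.01 and Vegfc, a lymphatic growth factor, had 8.03, 6.79 and 6.65. The remaining one, Fgf1, a fibroblast growth factor, had 6.57, 5.20 and 5.47. All 5 are named because replicate 1 passed the 2-fold rule, so its distance from the rest is not a separate result.

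Secreted carriers, proteases and inhibitors were bright as a list, with a median log2 signal of 11.33 over 32 genes and 17 of them in the top 10% of all genes. Besides Igfbp7, Sparc and Lgals1, Serpine2, the protease nexin that inhibits thrombin and plasminogen activators, had 13.50, 13.54 and 13.56. Igfbp5 had 13.19, 13.58 and 13.52, and Plat, tissue plasminogen activator, 12.95, 13.06 and 13.03. Both a protease and its inhibitor were thus near the top of the signal range. Mmp2, a gelatinase, reached 12.63 ± 0.32, and its inhibitor gene Timp2 11.45 ± 0.28. Mmp9, the inducible gelatinase, was at 4.17 and Plau, urokinase, at 5.13 ± 0.52. Apoe, the apolipoprotein of injured nerve, was at 6.60 ± 0.18 and Clu, clusterin, at 5.86 ± 0.09.

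Chemokines and cytokines were mostly below the floor, with 8 of 23 at or above it (34.8%). Mif, macrophage migration inhibitory factor, led at 11.02 ± 0.17. Ccl2, the monocyte chemoattractant, had 10.23, 9.56 and 8.27, and Cxcl12, a stromal chemokine, had 7.80, 8.94 and 9.46. Those 2 chemokines ran in opposite order over the arrays. Il6, Il10 and Cxcl2 were at 3.43, 3.41 and 3.84.

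Matrix and basal lamina genes were among the brightest structural genes, with 16 of 25 in the top 10% of all genes. Col5a2, a fibrillar collagen chain, had 13.81, 13.65 and 13.59. Tnc, tenascin-C, which is high in developing and injured nerve, had 13.19, 13.25 and 13.20. For the basal lamina, Col4a1, type IV collagen, reached 13.11 ± 0.27, Nid1, nidogen, 13.06 ± 0.02, and Agrn, agrin, 11.87 ± 0.19. The chains of laminin-211, the Schwann cell laminin, were Lama2 at 11.15 ± 0.12, Lamb1 at 11.27 ± 0.38 and Lamc1 at 11.96 ± 0.35. Lama1 was at 5.12 ± 0.23. All chains of that laminin were therefore above the floor while the epithelial alpha-1 chain was below it.

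Replicate 1 stood apart from the other control arrays, and by far more than those differed from each other. The SD over genes of the log2 difference was 0.32 between replicates 1 and 2, 0.37 between replicates 1 and 3 and 0.14 between replicates 2 and 3. In replicate 1, 205 genes (1.44% of 14213) were at least 2-fold above both other control arrays, and 60 (0.422%) were at least 2-fold below both. The same count for replicate 2 was 0 in each direction, and for replicate 3 it was 0 above and 2 below (0.0141%). The single array on one side allowed no test. At the edge of the rule, Ptprm was included with a smaller difference of 1.0 and E2f7 left out with 0.996. Below, Pfkfb4 was included at −1.0 and Ppp1r3b left out at −0.99.

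**Figure D4:**
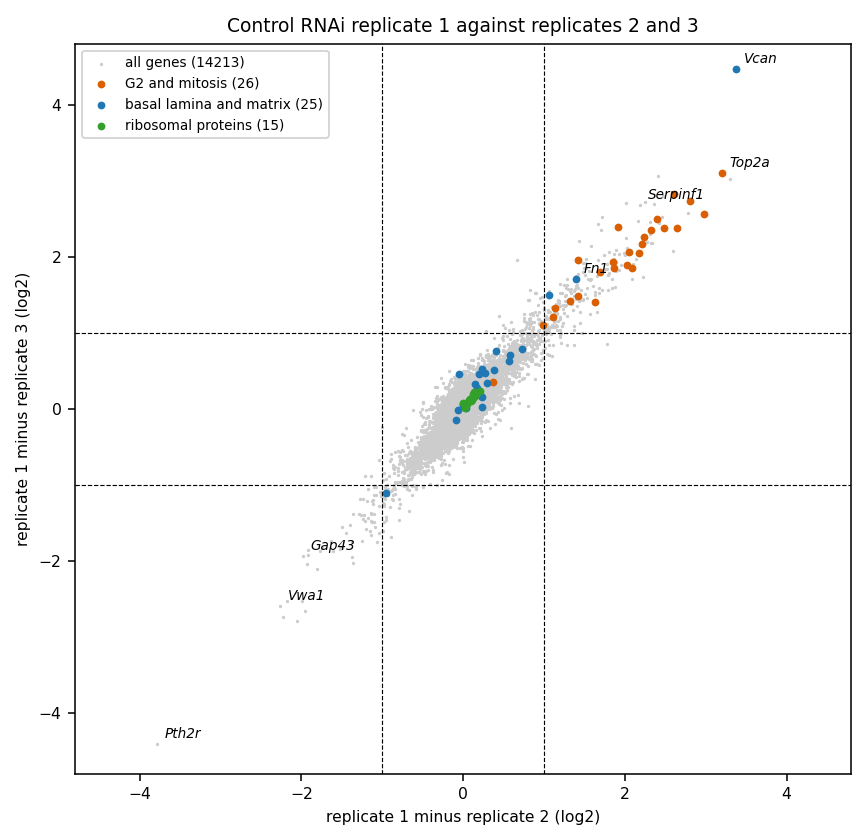
Log2 difference of Control RNAi replicate 1 from replicate 2 (x axis) and from replicate 3 (y axis), 1 point per gene; dashed lines mark 2-fold. Of the 26 G2 and mitosis genes, 24 lie at least 2-fold above on both axes, the ribosomal protein genes lie close to 0, and Vcan and Pth2r are the extremes.

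Of the gene lists, that of G2 and mitosis had the most members in the higher set. Of 26 measured genes of the G2 and mitosis list, 24 were at least 2-fold higher in replicate 1, with a median difference of 2.01 from the mean of the other 2 arrays. Top2a, the topoisomerase that untangles chromosomes, had 9.25, 6.05 and 6.14. Mki67, which encodes the proliferation antigen Ki-67, had 9.55, 6.74 and 6.81, and Cdk1, the kinase that starts mitosis, had 10.42, 7.94 and 8.05. Replicates 2 and 3 were close to each other for all 3. In the S phase and DNA replication list, 20 of 21 genes were highest in replicate 1, against 40.9% of all genes. Of these, 5 passed the 2-fold rule, and the median difference of the list was 0.48. The beta-actin 3′ and 5′ probe sets also differed most in this array, at 0.90 log2 units, with 0.78 to 0.87 in the knockdown groups. Whether RNA integrity had a part in the differences of these gene lists was not tested.

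Mitotic genes are known to share promoter elements, namely CCAAT boxes, which bind NF-Y, and the CHR element TTTGAA, through which the DREAM and B-Myb complexes act. Both were searched on both strands of the 250 bases before the annotated start. The letters TTTGAA occurred in 10 of the 22 mitosis genes with a promoter (45.5%) and in 10.9% of the 11736 measured genes, and in 16% of all 27457 promoters. CCAAT occurred in 19 of the 22 (86.4%), in 35.1% of measured genes and in 34.3% of all promoters. The 2 motifs were found together in 45.5% of the mitosis genes and 4.03% of measured genes. For the S phase list the shares were 5.26% for TTTGAA and 57.9% for CCAAT. Such a match describes the letters in the window only. The 120 bases before the start are shown for Mki67 (chr1:199952594-199952713, minus strand), Top2a (chr10:84473094-84473213, minus strand), Cdk1 (chr20:19265173-19265292, plus strand), Cdc20 (chr5:137255800-137255919, minus strand), which activates the anaphase-promoting complex, and Prc1 (chr1:143659361-143659480, plus strand), which builds the central spindle. They were chosen as mitosis genes with both elements in this stretch, are read 5′ to 3′ on the gene's strand in assembly GRCr8, and have each match in capitals (CCAAT or its complement ATTGG, and TTTGAA or TTCAAA). In Mki67 a TTTGAA and an ATTGG share 1 letter.
Mki67: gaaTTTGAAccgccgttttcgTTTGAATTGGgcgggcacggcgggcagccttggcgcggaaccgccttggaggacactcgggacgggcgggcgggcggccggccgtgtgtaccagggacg
Top2a: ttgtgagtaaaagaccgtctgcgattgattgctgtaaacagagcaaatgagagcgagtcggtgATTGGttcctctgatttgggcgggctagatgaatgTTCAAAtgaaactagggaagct
Cdk1: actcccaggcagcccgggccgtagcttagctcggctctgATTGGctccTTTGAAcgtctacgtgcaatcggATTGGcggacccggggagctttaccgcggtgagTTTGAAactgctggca
Cdc20: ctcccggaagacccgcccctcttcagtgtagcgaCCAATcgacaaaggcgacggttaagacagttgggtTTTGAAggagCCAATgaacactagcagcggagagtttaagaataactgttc
Prc1: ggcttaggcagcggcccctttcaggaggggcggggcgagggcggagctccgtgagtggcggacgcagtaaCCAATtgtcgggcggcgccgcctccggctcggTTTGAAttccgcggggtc

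Of the 205 genes that were higher in replicate 1, 24 were in the mitosis list and 5 in the S phase list. These lists do not hold every division gene: Aspm, a spindle pole protein, at 8.82, 6.41 and 6.35, and Hmmr, a spindle-associated hyaluronan receptor, at 8.19, 5.86 and 6.01, were outside them. The 12 leading genes were Vcan, Top2a, Pimreg, Mki67, Ttk, Depdc1, Ect2, Cd302, Col11a1, Pclaf, Moxd1 and Aspm, most of which are known from cell division. Among the others, the first in that order was Vcan, the proteoglycan versican, at 11.89, 8.51 and 7.42. Of its 4 other probe sets, 3 were above the other arrays by 3.51 to 3.68, and the fourth, which was dim, by 0.61. Col11a1, a minor fibrillar collagen chain, had 11.81, 9.35 and 9.29, and its 2 other probe sets showed differences of 2.37 and 2.47. Serpinf1, which encodes the secreted protein PEDF and was not among the 12, had 10.87, 8.68 and 8.20.

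Fibroblast markers in replicate 1 are given beside these matrix genes. Of the 14, 5 were highest and 5 lowest in that array. Over all genes the shares were 40.9% and 37.5%, so both counts are near the background. The 2-fold rule was passed by 1 (Fbln1 at 6.97, 5.81 and 5.72), and the list median was 6.74, 6.18 and 6.11. Dcn was at 3.94, 4.06 and 3.86 and Lum at 3.03, 3.13 and 3.07, near the bottom of the scale in each array. Brighter members went both ways. Postn had 13.91, 13.63 and 13.23 and Col3a1, a type III collagen chain, had 12.83, 12.19 and 11.98, both highest in replicate 1. Col1a1 was lowest there, at 13.90, 13.96 and 14.07. Whether fibroblasts had a part in these differences was not tested.

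Genes lower in replicate 1 included several of surface and signalling function. Pth2r, a parathyroid hormone receptor, had 5.24, 9.02 and 9.65, the largest difference in that direction. Vwa1, a matrix protein with a von Willebrand factor domain, had 8.68, 10.94 and 11.27, and Entpd2, an ectonucleotidase of non-myelinating Schwann cells, had 7.88, 9.83 and 10.54. Gap43 and Itga7, given above, were in this set too, with Id2, an inhibitor of helix-loop-helix factors, at 8.95, 10.48 and 10.79. Cd9, a tetraspanin of Schwann cells, had 7.96, 9.32 and 9.99. Of the 6 Schwann markers, 4 were lowest in replicate 1, where 37.5% of all genes were lowest. None was lower by 2-fold, and Sox10 was highest there.

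The replicate 1 arrays of the other groups showed part of the same pattern. Of the 205 genes, 154 were also highest in NF1 RNAi replicate 1 (75.1%, against 32.8% of all genes) and 137 in NF1 RNAi + U0126 replicate 1 (66.8%, against 35.1%). The median differences there were 0.28 and 0.21, against 1.5 in the control group. The genes were chosen by a 2-fold rule in the control arrays, so a larger control median follows from that choice. Of the 60 lower genes, 46 and 38 were lowest in those arrays (76.7% and 63.3%, against 37.1% and 35.8%). What the arrays of 1 number had in common is not stated in the labels.

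Both the mitosis and the matrix list showed replicate 1 highest in the other groups more often than all genes did. Of the mitosis genes, 73.1% were highest in replicate 1 with NF1 RNAi and 73.1% with U0126, and of the basal lamina and matrix genes 52% and 92%. The median differences of replicate 1 were 0.18 and 0.18 for the mitosis list and 0.11 and 0.46 for the matrix list. Single mitosis genes varied. Top2a had 5.19, 5.04 and 5.19 with NF1 RNAi, whereas Mki67 had 4.97, 4.28 and 4.11 and Bub1, a spindle checkpoint kinase, 6.73, 5.83 and 5.38. By the 2-fold rule, 14 of the 205 genes were at least 2-fold above both other arrays in replicate 1 of all 3 groups, none of which was in the mitosis list. The medians of the mitosis list were below the floor in the other groups, at 5.94, 5.67 and 5.56 with NF1 RNAi and 5.57, 5.46 and 5.54 with U0126. Differences between arrays are harder to see at such levels, so the rule may miss mitosis genes. Vcan had 10.32, 8.03 and 6.97 with NF1 RNAi and 9.21, 6.54 and 5.6 with U0126. Fbln2, fibulin-2, had 13.36, 11.68 and 10.92 in the control arrays, 11.89, 9.53 and 8.99 with NF1 RNAi and 12.18, 9.38 and 8.81 with U0126. Fn1, fibronectin, had 12.38, 10.99 and 10.67, then 11.55, 10.34 and 9.88, and 11.57, 9.90 and 9.20. The others were Avpr1a, Cd302, Col11a1, Col14a1, Csrp2, Gsta1, Il33, Mfap4, Nell1, Raph1 and Serpinf1. Below, the genes were Cd9, Efhd1, Maff and S100a6. These 18 genes were picked after their values were seen, and no difference between the lists was tested.

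**Figure D5:**
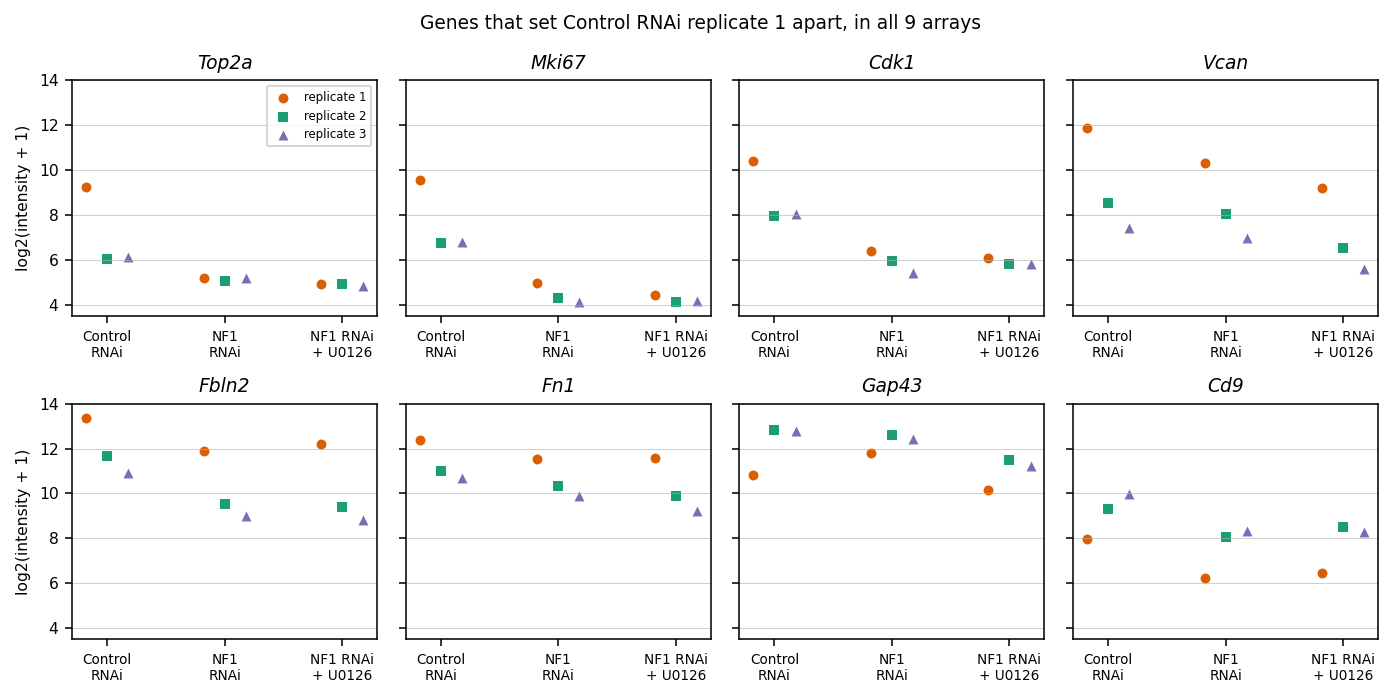
Log2(intensity + 1) (y axis) of 8 genes in the 3 groups (x axis), 1 point per array, with replicate numbers marked by shape. Top2a, Mki67 and Cdk1 are 2-fold or more higher in replicate 1 of the control group only among the 3 groups, whereas Vcan, Fbln2 and Fn1 are higher and Cd9 lower in replicate 1 of each group. Top2a and Mki67 lie below a log2 signal of 6 in all arrays of the knockdown groups, where differences are harder to see.

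Baseline levels were set against the knockdown groups to see which of the described genes moved. With limma and Benjamini-Hochberg adjustment over all 14213 genes, 26.3% of genes passed an adjusted p of 0.05 with NF1 RNAi (13% higher, 13.3% lower). With NF1 RNAi + U0126, 35.5% passed (17.9% higher, 17.6% lower). Both comparisons use the same control arrays. The 100 brightest genes were selected for being high in these control arrays, so their counts are a description.

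Among the 100 brightest genes, 14 rose and 21 fell with NF1 RNAi, and 13 rose and 25 fell with U0126 as well. Over all genes 13% rose and 13.3% fell in the first comparison and 17.9% and 17.6% in the second. The 14 rises are thus near the background and the 13 rises are below it. The first comparison depended on single arrays for the rises, of which 9 were left without control replicate 2, 7 without NF1 RNAi replicate 1, and 9 without NF1 RNAi replicate 2, without replicate 3 or without the replicate 1 arrays of all groups. With the replicate number as a block, 36 fell. Actg1 had 12.70, 13.38 and 13.27 with NF1 RNAi, so that it fell by 1.14 ± 0.17 (SE) on the log2 scale (limma adjusted p = 0.0013). Ccn2, a target of YAP, fell by 3.13 ± 0.49 (limma adjusted p = 0.0019), with all NF1 RNAi arrays at 10.49 or less. Rassf4, a Ras-association domain protein at rank 59, had 13.18, 13.35 and 13.43 in the control arrays and 11.69, 12.09 and 12.31 with NF1 RNAi (limma adjusted p = 0.00031). With U0126 it had 13.07, 13.19 and 13.19, and the difference from control was −0.17 ± 0.14 (limma adjusted p = 0.39). Igfbp5 rose, by 0.59 ± 0.12 with NF1 RNAi and by 0.90 ± 0.12 with U0126 (limma adjusted p = 0.0059 and 0.00042).

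Of the 6 Schwann markers, S100b rose and Pmp22 fell in both comparisons. S100b had 14.05, 14.01 and 14.05 with NF1 RNAi (limma adjusted p = 0.00014) and 13.67, 13.66 and 13.66 with U0126 (limma adjusted p = 0.0021), in each case above all control arrays. Pmp22 had 9.92, 11.23 and 11.44, then 10.42, 11.12 and 11.06, and its fall was 1.96 ± 0.36 in each (limma adjusted p = 0.0041 and 0.0027). Gfap fell with U0126, by 1.95 ± 0.32 (limma adjusted p = 0.0015), and with NF1 RNAi its difference was −0.65 ± 0.32 (limma adjusted p = 0.18, and 0.043 without NF1 RNAi replicate 3). Sox10 differed by −0.02 ± 0.07 with NF1 RNAi (limma adjusted p = 0.86). With U0126 it fell by 0.22 ± 0.07 (limma adjusted p = 0.031), a call lost without control replicate 1 (adjusted p = 0.080), without control replicate 2 (0.063), without NF1 RNAi + U0126 replicate 3 (0.092) or without the replicate 1 arrays of all groups (0.063). 

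Erbb3 and Ngfr depended on the replicates. Erbb3 had 9.96, 10.32 and 10.41 with NF1 RNAi and 8.75, 9.27 and 9.45 with U0126, so each array moved up, then down, from the control array of its number. Its differences were 0.53 ± 0.22 and −0.55 ± 0.22 (limma adjusted p = 0.12 and 0.082), and with the replicate number as a block both passed (limma adjusted p = 0.00094 and 0.00046). It also passed with U0126 without control replicate 1 (limma adjusted p = 0.023) and in both comparisons without the replicate 1 arrays of all groups (limma adjusted p = 0.0095 and 0.0037). Ngfr averaged 12.97 ± 0.04 with NF1 RNAi, within the control range (limma adjusted p = 0.52). With U0126 it had 13.24, 13.27 and 13.33, above all control arrays, at a difference of 0.49 ± 0.17 (limma adjusted p = 0.051). That adjusted p was 0.036 with the replicate block, 0.014, 0.042 and 0.025 without control replicate 1, 2 or 3, and 0.020 without the replicate 1 arrays of all groups.

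Of the 29 receptor genes, 4 rose and 9 fell with NF1 RNAi, and 7 rose and 7 fell with U0126. The shares over all genes were 13% and 13.3%, and 17.9% and 17.6%, so the 4 rises are near the background. Without the replicate 1 arrays of all groups, 8 rose with NF1 RNAi. Without NF1 RNAi + U0126 replicate 3, 4 rose with U0126. The GDNF family co-receptors separated. Gfra1 differed by 0.11 ± 0.18 with NF1 RNAi (limma adjusted p = 0.73), and this sign turned to −0.14 without control replicate 1. Gfra2 had 6.71, 7.56 and 7.69 with NF1 RNAi and fell by 2.31 ± 0.27 (limma adjusted p = 0.00040), and Gfra3 had 7.01, 7.64 and 7.22 and fell by 2.36 ± 0.19 (limma adjusted p = 7.4e-05). The difference between co-receptors was not tested.

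The TAM receptors went in different directions. Axl fell by 0.80 ± 0.15 and Tyro3 by 1.57 ± 0.14 with NF1 RNAi (limma adjusted p = 0.0043 and 9.4e-05), while Mertk rose by 1.40 ± 0.28 (limma adjusted p = 0.0058), from 8.36, 9.09 and 9.33 to 10.12, 10.39 and 10.48. Their ligand gene Gas6 rose by 0.31 ± 0.06 (limma adjusted p = 0.0052). With U0126 the receptors kept their directions, at −0.64 ± 0.15, −0.90 ± 0.14 and 1.47 ± 0.28 (limma adjusted p = 0.0084, 0.00091 and 0.0030), and the difference for Gas6 was −0.00 ± 0.06 (limma adjusted p = 0.98). S1pr3 had 9.34, 9.99 and 9.98 with NF1 RNAi and fell by 2.08 ± 0.23 (limma adjusted p = 0.00033). Lpar1 rose with NF1 RNAi by 1.48 ± 0.15 (limma adjusted p = 0.00023) and with U0126 its difference was 0.12 ± 0.15 (limma adjusted p = 0.59).

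Of the trophic and growth factors, 6 of 38 rose and 7 fell with NF1 RNAi, and 3 rose and 9 fell with U0126. Over all genes 13% rose and 13.3% fell in the first comparison and 17.9% and 17.6% in the second, so the counts with NF1 RNAi are near the background. Without control replicate 1, 6 rose with U0126, and without the replicate 1 arrays of all groups 7 did. Of the basal lamina and matrix genes, 12 of 25 fell with NF1 RNAi and 11 with U0126, where all genes had 13.3% and 17.6%. Lamb1 had 8.62, 8.92 and 8.75 with NF1 RNAi, below all control arrays (limma adjusted p = 7.6e-05). Without NF1 RNAi replicate 3, 7 of the matrix genes fell in the first comparison, and with the replicate block 17 fell in the second.

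The number of mitosis genes that fell moved more without NF1 RNAi replicate 2 or 3 than without control replicate 1. With all arrays, 17 of the 26 genes of the mitosis list fell with NF1 RNAi, where 13.3% of all genes fell. Without control replicate 1, 19 did. Without NF1 RNAi replicate 2 the count was 10 and without NF1 RNAi replicate 3 it was 11. These counts do not give the size of the fall. The list median was 8.78, 6.83 and 6.90 in the control arrays and 5.94, 5.67 and 5.56 with NF1 RNAi, so control replicate 1 enlarged the difference. Top2a differed by −2.0 ± 0.71 with NF1 RNAi (limma adjusted p = 0.067), where the 3 control arrays spread over 3.20 log2 units. Without control replicate 1 the difference was −0.95 (limma adjusted p = 8.7e-05), and without the replicate 1 arrays of all groups −0.98 (limma adjusted p = 0.00020). Without control replicate 2 or 3 the adjusted p was 0.040 and 0.043, and with the replicate block it was 0.045. All NF1 RNAi arrays lay below all control arrays for Top2a, Mki67 and Cdk1.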

How the data were processed

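Total RNA of 9 cultures was hybridised to Affymetrix rat arrays, 1 array per culture. The deposited value table holds 1 linear intensity per probe set and array, from 5.62 to 25800.2; the authors used RMA, per the submitters' processing notes, for which the sources used here name no version or probe set definition. Here log2(intensity + 1) was taken from these deposited values. Precision is limited by the number of arrays.

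Of 31099 probe sets, 57 manufacturer's controls were left out. A platform annotation named exactly 1 gene for 20826 of the rest. It named several for 436 and no gene for 9780, and symbols were updated by gene ID through the RefSeq table of GRCr8 for 20758. For each of 14213 genes the brightest probe set over 9 arrays was kept, and 4526 genes had more than 1. Using the control mean would change the probe set of 121 genes.

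Tests were run in limma 3.58.1 under R 4.3.3 (group means model over all 9 arrays, 6 residual degrees of freedom, Benjamini-Hochberg over all genes, adjusted p under 0.05, no fold limit, no low-value filter); the fit was tested on simulated data. P-values measure the spread between these cultures. Replicate 1 was set against replicates 2 and 3 by a 2-fold rule with no test. Same-numbered arrays of different groups deviated together from their group means (r across genes 0.17 to 0.62 in 9 pairs, against −0.52 to 0.40 in 18 pairs of different numbers). All negative values came from pairs of a replicate 1 array with a replicate 2 or 3 array. Between replicates 2 and 3, pairs of different numbers gave 0.14 to 0.40 and same-numbered pairs 0.17 to 0.34. The correlation thus set replicate 1 apart and did not separate number 2 from number 3. The number was treated as pairing in an alternative fit, and the labels state no pairing. Promoters were searched in RefSeq GRCr8 sequence, 250 bases before the start. Probe set coordinates were not used.

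The gene lists and the members were chosen with earlier results of these data known. Named genes were the 25 brightest, the 6 markers, per list up to 8 highest and 4 lowest and those with extreme replicate 1 differences, the 12 genes most above and 12 most below in replicate 1, per list up to 4 called genes with the largest fold changes, and Nf1. Genes outside this rule were chosen after their values were seen, namely the genes 2-fold apart in replicate 1 of all groups and single members named to complete a family or pathway. Alternatives are given at the end; leaving out all replicate 1 arrays was added after seeing the data. Figures used matplotlib 3.10.9 in Python 3.11.15.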

Additional observations from a re-analysis of the deposited data

How the results depend on the processing

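The 2 counts of genes past the threshold, 3734 with NF1 RNAi and 5047 with NF1 RNAi + U0126, stayed within 1.5 times under every alternative run. With the replicate number as a block, 4547 and 5793 genes passed. Leaving out 1 array at a time gave 2790 to 3755 and 4107 to 5089, and leaving out the replicate 1 arrays of all groups, chosen after seeing the data, gave 3827 and 5428. The remaining alternatives (leaving out dim genes, fitting only the 2 groups, another choice of probe set, centring on the median, repeated quantile normalization, no pseudocount, an intensity trend) gave 3236 to 3857 and 4391 to 5261. The genes higher in control replicate 1 numbered 150 to 215 and those lower 58 to 63 over their alternatives. Among refits of single named genes, 1061 kept direction and call, 9 lost the call (3 for Jun with NF1 RNAi, 6 for Sox10 with U0126) and 19 gained it (Erbb3, Ngfr, Top2a and Gfap). Another 9 changed sign, each for a difference that had not passed. With NF1 RNAi, leaving out 1 array at a time gave log2 differences of −0.0401 to 0.0118 for Sox10, −0.0651 to 0.306 for Ngfr and −0.140 to 0.253 for Gfra1, and leaving out all replicate 1 arrays gave 0.0198, −0.0685 and −0.0595. With U0126, Gas6 came to 0.0148 with median centring and to −0.0261 to 0.0380 with 1 array left out. The replicate block changed no call of the named genes refitted besides Erbb3, Ngfr and Top2a. Because levels come from probe sets of unequal affinity and 3 arrays, order among genes of like signal is not settled.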

Other observations

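Of 27 measured immediate-early and ERK feedback genes, 15 were highest and 9 lowest in control replicate 1, with a median difference of 0.11. Over all genes the shares were 40.9% and 37.5%. In that array 4 were at least 2-fold higher, against 1.44% of all genes. Egr1, an immediate-early transcription factor, had a log2 signal of 11.26, 9.83 and 9.05 in control replicates 1, 2 and 3. Dusp6, the phosphatase that switches ERK off, had 10.62, 9.22 and 8.88, Spry1, a Sprouty inhibitor of receptor kinase signalling, 8.27, 6.76 and 6.35, and Etv5, an ETS factor, 7.97, 6.17 and 5.91. Dusp5 and Dusp1, further phosphatases of the pathway, were lowest in replicate 1, at 7.34, 8.06 and 7.94 and at 8.62, 9.31 and 9.12, as were Fosl1 and Myc. In the NF1 RNAi arrays Dusp6 had 10.08, 9.79 and 9.30 and Egr1 8.83, 9.18 and 8.73, so that the replicate 1 arrays there did not stand apart by 2-fold. Cdkn1a, the cell cycle inhibitor p21, was also highest in control replicate 1 at 10.75, 9.23 and 8.78, in the array in which mitosis genes were highest.

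Of 22 glycolysis and hypoxia genes, 17 reached a log2 signal of 6. Ldha, lactate dehydrogenase A, had 13.58, 13.53 and 13.54, and Pgam1, a glycolytic mutase, 12.65 in each control array. The hypoxia-induced genes Car9 and Egln3 were at 4.96 ± 0.03 and 3.71 ± 0.10. Of the interferon response genes, 9 of 21 reached a log2 signal of 6. Gbp2, a guanylate-binding protein, stood out at 11.49, 12.47 and 12.34, while Mx1, Ifit3 and Rsad2, which are strongly induced by type I interferon, were at 4.28, 3.98 and 4.33. Plk2, a p53-responsive kinase gene, reached 13.11 ± 0.23.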
